A study of Rattus norvegicus with 9 samples.

Results

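Peroxisome proliferator-activated, steroid and hormone nuclear receptors were followed by their mRNA in rat liver. The 9 genes were Ppara, Ppard, Pparg, Rxra, Nr1h3, Thrb, Vdr, Nr3c1 and Esr1, chosen by name from the 32883 genes of the deposited table. Of these, 8 were found by gene symbol. Nr3c1, the glucocorticoid receptor, is listed under a clone name and was found through its NCBI gene ID. All 9 had enough reads to be tested in every comparison, Vdr in those with normal control rats only through its reads in the other group. In the coordinates of the deposited table, whose build is not given in the sources used here, the PPAR genes lie as Ppara on chromosome 7 (126619196 to 126681752), Ppard on chromosome 20 (7818289 to 7885333) and Pparg on chromosome 4 (147274107 to 147399380). The table places Rxra on chromosome 3 (6211789 to 6295908), Nr1h3 on chromosome 3 (80004130 to 80012750) and Thrb on chromosome 15 (8890578 to 9086282). It places Vdr on chromosome 7 (139342063 to 139394166), Nr3c1 on chromosome 18 (31728373 to 31749647) and Esr1 on chromosome 1 (41192824 to 41594796). The table also holds 39 other nuclear receptor genes, which served as the comparison family.

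The animals were 9 male rats of the Sprague-Dawley stock. Each gave 1 liver mRNA library, and they fell into a normal control, a DEN model and a PZH administration group of 3 rats each. Normal control rats ate a normal diet and received no DEN. DEN model and PZH administration rats shared weekly intraperitoneal injections of 0.01% diethylnitrosamine (DEN), a liver carcinogen, in a schedule of 16 weeks. Rats were also killed before its end, so the number of injections the sequenced rats received is not known. PZH administration rats were also given PZH (Pien-Tze-Huang), a traditional Chinese formula. The dose of PZH and the week of collection of the sequenced rats are not given in the sources used here, and no rat received PZH without DEN. The M rats carry a PZH treatment tag in the deposited labels, as the G rats do. They were read as the DEN model group from the letter in their names, and every comparison with that group rests on this reading. Each library came from a piece of whole liver, in which fewer cells of a type and less RNA per cell cannot be told apart.

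Nuclear receptors are transcription factors that are switched by small fat-soluble ligands and bind DNA near the genes they control. PPARα, LXRα (the product of Nr1h3), the thyroid hormone receptor and the vitamin D receptor bind DNA together with RXRα, whereas the glucocorticoid and oestrogen receptors bind mainly as pairs of themselves. In the liver PPARα is known for driving fatty acid oxidation during fasting, and LXRα for sterol balance and fatty acid synthesis. The thyroid hormone receptor is known for metabolic rate, and the glucocorticoid receptor for amino acid breakdown and glucose production.

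Total counts were 16115709 to 16412520 in normal control rats, 15259441 to 16641954 in DEN model rats and 14922973 to 27161496 in PZH administration rats, with rat 27 the deepest. Levels within a gene are given as CPM, read counts brought to an equal library size with edgeR's TMM factors over the 9 rats. Those factors ran from 0.731 to 0.799, from 1.21 to 1.58 and from 0.864 to 0.942 in the 3 groups. With library totals in place of TMM the median over all genes of the log2 fold change moved by 0.86 for DEN model against normal control, by -0.67 for PZH administration against DEN model and by 0.23 for PZH administration against normal control. Directions below are therefore relative to the TMM scaling. The summed level of 10 hepatocyte markers was 169500 to 183500 CPM in normal control, 36510 to 85870 CPM in DEN model and 145400 to 175200 CPM in PZH administration rats, and none of the 10 was at 0 in a whole group. The part of this shift in the receptor values was not tested.

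The 250 bases before the start site, from RefSeq on the GRCr8 build, were available for 8 of the 9 receptor genes in 10 entries. Those of 3 receptors and 2 PPARα target genes are shown, to set receptors that moved in opposite directions and the targets that fell most side by side. Searched on both strands, without mismatches, were GGGCGG, the GC box bound by Sp family factors, and AGGTCA, the core motif of receptors that pair with RXRα. A GC box was found in 7 of the 10 entries, for 6 of the 8 genes, where 30.5% of 33469 promoters hold one. The core motif was found in 0 of the 10, where 14.1% of all promoters hold it. Vdr, the gene with the largest fitted change, has GC boxes that begin 108 and 81 bases before its start (chr7:130916758-130917007, minus strand). Thrb, which was called in both comparisons with the DEN model, has 4, of which 3 overlap (chr15:10461447-10461696, minus strand). Esr1 has none (chr1:43641845-43642094, plus strand). Capitals mark the GC boxes.
Vdr: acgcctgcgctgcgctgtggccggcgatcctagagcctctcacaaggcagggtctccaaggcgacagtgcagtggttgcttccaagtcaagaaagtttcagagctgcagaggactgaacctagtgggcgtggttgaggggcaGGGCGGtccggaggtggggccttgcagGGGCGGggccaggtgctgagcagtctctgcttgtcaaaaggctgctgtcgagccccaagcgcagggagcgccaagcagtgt
Thrb: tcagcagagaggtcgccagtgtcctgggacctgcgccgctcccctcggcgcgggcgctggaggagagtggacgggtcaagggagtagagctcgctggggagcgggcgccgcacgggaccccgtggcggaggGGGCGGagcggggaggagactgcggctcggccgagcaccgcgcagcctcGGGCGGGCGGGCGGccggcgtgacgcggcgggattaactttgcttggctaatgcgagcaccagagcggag
Esr1: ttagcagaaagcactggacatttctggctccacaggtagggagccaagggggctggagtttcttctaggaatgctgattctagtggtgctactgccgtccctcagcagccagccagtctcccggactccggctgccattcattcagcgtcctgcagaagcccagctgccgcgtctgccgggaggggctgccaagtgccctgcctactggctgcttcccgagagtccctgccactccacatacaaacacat

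Among 23 PPARα target genes, 19 had a promoter entry, of which 12 held a GC box and 4 held the core motif, namely Cyp4a2, Cyp4a3, Fabp1 and Creb3l3. Of all promoters, 30.5% hold a GC box and 14.1% the core motif. A direct repeat of the core motif with 1 base between is the consensus element of PPARα with RXRα. Searched without mismatches, it was found in none of the 19 and in 0.0508% of all promoters. Elements that differ from these letters were not searched for, so their absence is not shown. The motif begins 105 bases before the start of Cyp4a2 (chr5:134170909-134171158, minus strand) and 77 bases before that of Fabp1 (chr4:104749090-104749339, plus strand), the target genes with the lowest values in DEN model rats relative to normal control. Fgf21 (log2 fold change -4.09) and Ehhadh (-3.10), which fell most after these, held no core motif. Capitals mark the core motif, which reads TGACCT on the opposite strand.
Cyp4a2: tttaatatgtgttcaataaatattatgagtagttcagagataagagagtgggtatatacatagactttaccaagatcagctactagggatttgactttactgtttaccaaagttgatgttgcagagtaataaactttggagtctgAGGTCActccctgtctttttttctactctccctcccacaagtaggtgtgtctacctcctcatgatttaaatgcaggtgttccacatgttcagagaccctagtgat
Fabp1: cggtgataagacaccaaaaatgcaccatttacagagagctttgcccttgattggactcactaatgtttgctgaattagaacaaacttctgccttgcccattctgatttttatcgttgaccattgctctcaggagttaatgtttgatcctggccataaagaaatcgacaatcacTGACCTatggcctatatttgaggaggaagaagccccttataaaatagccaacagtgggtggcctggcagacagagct

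In DEN model against normal control, 6 of the 9 receptors fell, 1 rose and 2 did not pass the test. Across all 14255 genes tested 45.8% were called, 25.3% higher and 20.5% lower, where a call is a Benjamini-Hochberg adjusted p under 0.05 from the quasi-likelihood test of edgeR. Ppara, Rxra, Nr1h3, Thrb, Nr3c1 and Esr1 fell, and Vdr rose. The groups did not overlap for these 7, against 58.8% of all genes tested. With library totals the split was 2 higher and 4 lower, with Ppard called higher and Nr1h3 and Nr3c1 no longer called, and over all genes it moved from 3612 higher and 2917 lower to 8126 higher and 958 lower. Vdr alone passed the stricter rule of the study (log2 fold change beyond 2 either way and unadjusted P under 0.001), which 12.3% of genes passed. In PZH administration against DEN model, 2 receptors rose (Thrb and Ppara) and none fell, where 19.1% of 14272 genes were called, 8.72% higher and 10.3% lower. The groups did not overlap for 5 of the 9, against 40.9% of all genes, and 0 of the 9 passed the study's stricter rule, against 2.43% of all genes. At an unadjusted p under 0.05 the same test gave 6 higher and 1 lower, and DESeq2 called 5 higher and 1 lower. With library totals 1 was called higher and 2 lower. Calls in this comparison turned on single rats, with 6 receptors called without DEN model rat 17 and 1 without DEN model rat 13 or 24 or PZH administration rat 28 or 42, and with 3319 genes called without DEN model rat 17 and 271 without DEN model rat 13. Both comparisons use the same DEN model rats, so a rat that stands apart moves both. In PZH administration against normal control, Vdr was the only receptor called, where 5.21% of 13348 genes were called, 4.07% higher and 1.15% lower, or 543 and 153 genes (818 and 91 with library totals). It also passed the stricter rule there, which 2.32% of genes passed. The groups did not overlap for 4 receptors, against 24.2% of all genes.

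**Figure D1:**
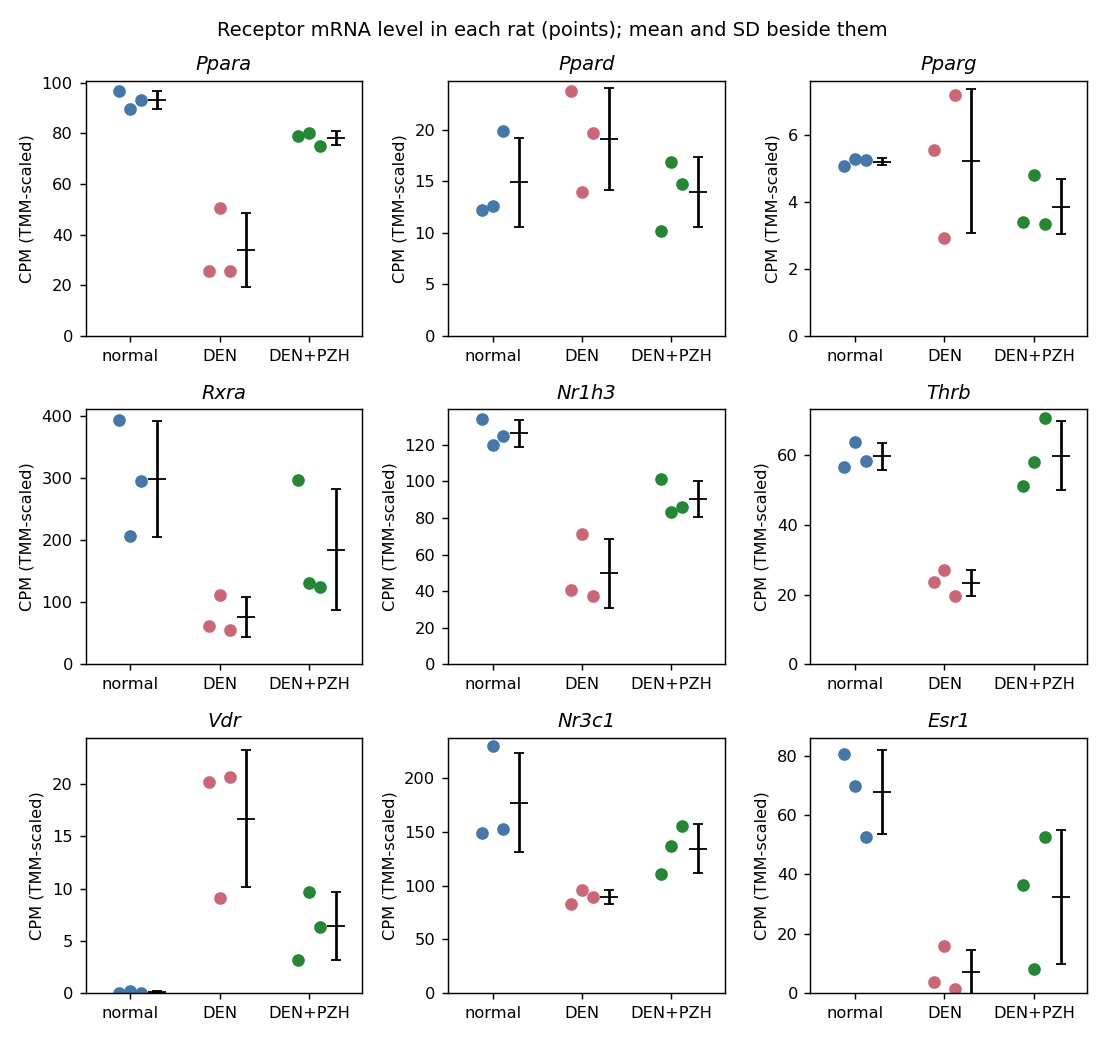
Level of each receptor in each rat, as TMM-scaled CPM on linear axes that start at 0. Points are rats, and the bars beside them are the mean and SD of the 3 rats in each group (DEN+PZH is PZH administration). Ppara, Rxra, Nr1h3, Thrb, Nr3c1 and Esr1 lay lower in all DEN model rats than in all normal control rats, and Vdr lay higher.

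Ppara encodes PPARα, the fatty acid sensor of the hepatocyte. It stood at 96.8, 89.8 and 93.1 CPM in normal control rats 1, 3 and 12, at 25.6, 50.6 and 25.6 CPM in DEN model rats 13, 17 and 24, and at 79.0, 80.3 and 75.1 CPM in PZH administration rats 27, 28 and 42. The 3 groups did not overlap, and DEN model rat 17 lay nearest to the others. Values below follow the same order of rats. The fall in DEN model rats was -1.44 on the log2 scale (SE 0.28, edgeR quasi-likelihood adjusted p = 0.0037), and the rise in PZH administration rats over DEN model was 1.23 (SE 0.28, adjusted p = 0.024). That rise no longer passed the threshold without DEN model rat 13 (adjusted p = 0.098) or 24 (0.084), without any single PZH administration rat, or with library totals (0.057). PZH administration rats were -0.25 from normal control (SE 0.16, adjusted p = 0.47 in the same test).

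Ppard encodes PPARδ, an isotype found in most tissues. Its values were 12.3, 12.6 and 19.9 CPM in normal control, 23.7, 14.0 and 19.7 CPM in DEN model and 10.2, 16.9 and 14.7 CPM in PZH administration rats. These ranges overlapped in every pair of groups. The log2 fold changes were 0.37 (SE 0.27) for DEN model against normal control and -0.44 (SE 0.26) for PZH administration against DEN model, with edgeR quasi-likelihood adjusted p = 0.30 and 0.28. With library totals both passed the threshold, at 1.26 (edgeR adjusted p = 0.008) and -1.12 (0.024). Pparg encodes PPARγ, the fat cell isotype. It measured 5.07, 5.28 and 5.26 CPM in normal control, 5.56, 2.92 and 7.20 CPM in DEN model and 3.41, 4.80 and 3.34 CPM in PZH administration rats. In CPM the DEN model rats spread on both sides of the tight normal control values, and all PZH administration rats lay below the normal control rats. In FPKM, PZH administration rat 28 lay above the normal control rats, at 1.94 against 1.68 to 1.83. Pparg was not called in PZH administration rats, at -0.42 against DEN model (edgeR adjusted p = 0.46) and -0.43 against normal control (0.49). Its log2 fold change in DEN model rats was 0.02 (SE 0.35, edgeR adjusted p = 0.96), and its sign turned with the rat left out.

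Rxra encodes RXRα, the shared partner of the PPAR, LXR, thyroid hormone and vitamin D receptors. It measured 393, 206 and 295 CPM in normal control, 61.9, 113 and 54.8 CPM in DEN model and 297, 132 and 125 CPM in PZH administration rats. DEN model rats lay below all others, and PZH administration rat 27 lay within the normal control range while rats 28 and 42 lay below it. The log2 fold change in DEN model rats was -1.94 (SE 0.35, edgeR adjusted p = 0.0026). It was 1.3 in PZH administration over DEN model rats (SE 0.42, adjusted p = 0.063 in the same edgeR test). Without rat 27 Rxra was lower in PZH administration than in normal control rats (log2 fold change -1.21, edgeR adjusted p = 0.026), a call not made with all rats (0.37).

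Nr1h3 encodes LXRα, the oxysterol receptor. It measured 134, 120 and 125 CPM in normal control, 40.5, 71.5 and 37.2 CPM in DEN model and 101, 83.3 and 86.1 CPM in PZH administration rats. The groups did not overlap, with PZH administration rats between the others. Nr1h3 fell in DEN model rats by 1.33 on the log2 scale (SE 0.26, edgeR adjusted p = 0.0042). In PZH administration over DEN model rats its log2 fold change was 0.89 (SE 0.27), which missed the threshold (edgeR adjusted p = 0.054). It passed without DEN model rat 17 (0.0059), the only one of 6 leave-one-out fits to do so, and in DESeq2 (0.017). With library totals it was 0.26 and did not pass (edgeR adjusted p = 0.34).

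Thrb encodes the thyroid hormone receptor β, the main isotype of hepatocytes. It measured 56.6, 63.9 and 58.4 CPM in normal control, 23.7, 27.1 and 19.6 CPM in DEN model and 51.1, 57.9 and 70.5 CPM in PZH administration rats. Every DEN model rat lay below every other rat, and the normal control and PZH administration ranges overlapped. Thrb fell in DEN model rats by 1.33 on the log2 scale (SE 0.18, edgeR adjusted p = 0.00071) and rose in PZH administration over DEN model rats by 1.37 (SE 0.20, edgeR adjusted p = 0.0092). This rise stayed past the threshold with each rat left out in turn, with edgeR adjusted p between 0.005 and 0.047. With library totals both changes were smaller and passed the threshold, at -0.48 (edgeR adjusted p = 0.039) and 0.73 (0.024). PZH administration rats were 0.01 from normal control (SE 0.19).

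Vdr encodes the vitamin D receptor. It had 0, 2 and 0 reads in the normal control rats, 477, 184 and 498 reads in the DEN model rats and 75, 139 and 89 reads in the PZH administration rats. In CPM this was at most 0.168 in normal control, 20.3, 9.11 and 20.7 in DEN model and 3.20, 9.67 and 6.33 in PZH administration rats. Normal control rats lay apart from all others, and the DEN model and PZH administration ranges met only through DEN model rat 17 and PZH administration rat 28. The scaled ratio of DEN model to normal control counts was 324, with an exact 95% interval of 89.4 to 2680 that covers counting error only, from 1159 reads against 2. The ratio of PZH administration to normal control was 111 (30.3 to 917). Both were called, with edgeR adjusted p = 0.00015 and 0.0051. Vdr entered both tests only through its reads in the group where it was higher. With at least 10 counts asked of every rat it was not tested there. In PZH administration against DEN model rats the log2 fold change was -1.37 (SE 0.45), which missed the threshold (edgeR adjusted p = 0.064). It passed in DESeq2 (0.017) and with library totals (0.012). Of 6 leave-one-out fits it passed only in that without DEN model rat 17 (0.027).

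All 6 ductular markers were found in the table, and their summed level was 13.3 to 21.0 CPM in normal control, 625, 235 and 756 CPM in DEN model and 80.8, 108 and 102 CPM in PZH administration rats. Krt7, a keratin of bile duct cells, had 0 reads in normal control rats 1 and 3. The summed level of 7 stellate cell markers was 133 to 173 CPM in normal control, 863, 574 and 1682 CPM in DEN model and 279 to 338 CPM in PZH administration rats. The 6 lymphocyte markers summed to 9.55, 6.33 and 23.9 CPM in DEN model rats. Within the DEN model group Vdr, the ductular, the stellate and the lymphocyte markers had the same order of rats. The macrophage sum (552, 497 and 463 CPM), the endothelial sum (187, 222 and 109 CPM) and the hepatocyte sum had other orders. Vdr itself was nearly equal in DEN model rats 13 and 24, at 20.3 and 20.7 CPM. In PZH administration rats the ductular and stellate sums followed the order of Vdr, and the lymphocyte sum (5.16, 5.22 and 1.85 CPM) did not. The part of these cell type markers in the Vdr values was not tested.

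Nr3c1 encodes the glucocorticoid receptor. It measured 149, 230 and 153 CPM in normal control, 82.9, 96.1 and 89.6 CPM in DEN model and 111, 137 and 156 CPM in PZH administration rats. DEN model rats lay below all others, and the remaining groups overlapped. The log2 fold change in DEN model rats was -0.97 (SE 0.23, edgeR adjusted p = 0.0088), and it was -0.10 with library totals. For PZH administration against DEN model it was 0.61 (SE 0.19, edgeR adjusted p = 0.058) and -0.05 with library totals, so its direction depends on the scaling.

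Esr1 encodes the oestrogen receptor α. It measured 80.7, 70.0 and 52.6 CPM in normal control, 3.82, 15.7 and 1.33 CPM in DEN model and 36.4, 8.21 and 52.7 CPM in PZH administration rats. DEN model rats lay far below normal control, and PZH administration rats were split, with rat 28 inside the DEN model range and rat 42 inside the normal control range. The fall in DEN model rats was -3.28 on the log2 scale (SE 0.73, edgeR adjusted p = 0.0068), and -4.70 without DEN model rat 17. PZH administration rats were 2.25 from DEN model (SE 0.90, edgeR adjusted p = 0.11) and -1.06 from normal control (SE 0.53, edgeR adjusted p = 0.34). Without DEN model rat 17 the value against DEN model was 3.66 (edgeR adjusted p = 0.021), the only one of 6 leave-one-out fits to pass.

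**Figure D2:**
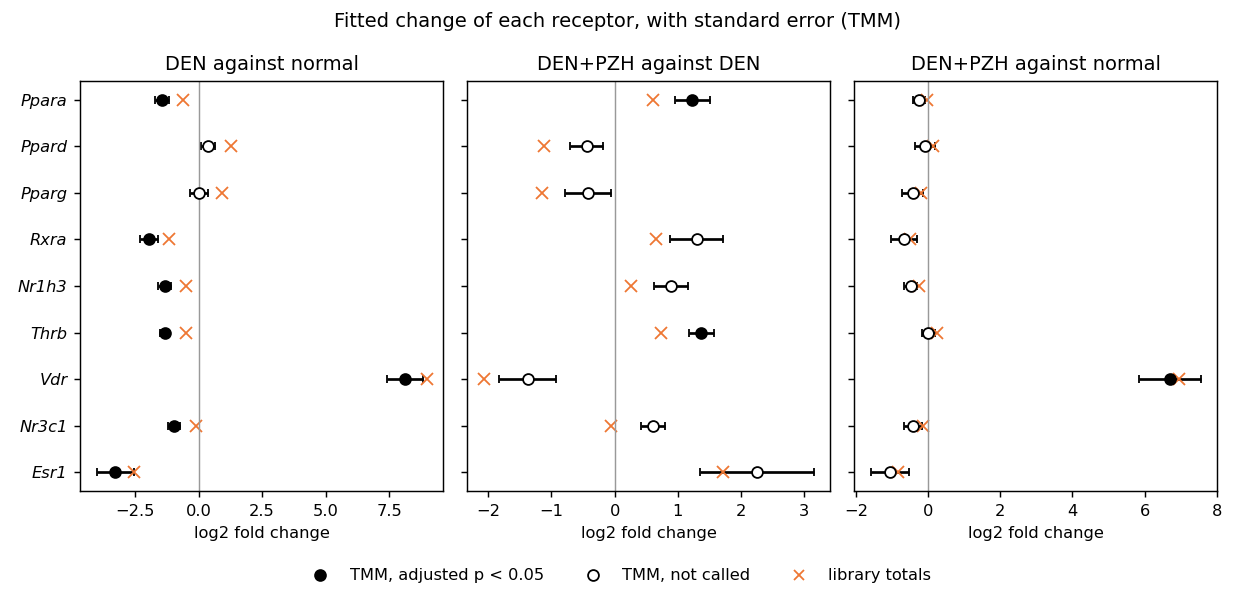
Fitted log2 fold change of each receptor with its standard error in the 3 comparisons, under TMM scaling (circles, filled at an adjusted p under 0.05) and with library totals (crosses). Library totals moved the DEN model against normal control values upward and the PZH administration against DEN model values downward, and Nr3c1 changed sign in the latter.

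Levels of different receptors were compared in the authors' FPKM, which accounts for transcript length. In normal control liver Rxra was highest at 117 ± 40.7 FPKM (SD, n = 3), followed by Nr1h3 at 59.9 ± 5.89. Ppara at 28.2 ± 2.31 and Nr3c1 at 26.9 ± 5.48 overlapped, as did Thrb at 6.37 ± 0.132 and Esr1 at 5.93 ± 1.26. Pparg at 1.76 ± 0.0742 and Ppard at 1.53 ± 0.492 also overlapped, and Vdr was lowest at 0.00917 ± 0.0159 FPKM. In DEN model liver Rxra at 52.9 ± 13.9 FPKM overlapped with Nr1h3 at 41.9 ± 9.67. Vdr, at 5.52 ± 2.65 FPKM, ranked just above Thrb, and Esr1 became lowest at 1.01 ± 1.01, with overlap between all neighbours from Vdr downward. In PZH administration liver Vdr was lowest again at 1.32 ± 0.698 FPKM and overlapped with Pparg at 1.53 ± 0.358.

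Ratios of related receptors within a rat do not depend on the scaling between rats. The ratios were chosen after the values were seen, so a test of them decides nothing. An exact permutation test was run on 7 ratios, in 21 tests. Its p cannot go below 0.1 here, and its lowest Benjamini-Hochberg adjusted p was 0.26. Ppara stood at 13.8 to 23.3 times the FPKM of Ppard in normal control, 3.18 to 10.7 times in DEN model and 14.0 to 22.8 times in PZH administration rats. The ratio of Thrb to Thra, the other thyroid hormone receptor, was 2.04 to 5.78 in normal control, 0.661 to 0.892 in DEN model and 1.53 to 2.41 in PZH administration rats. DEN model rats were thus the only ones with less Thrb than Thra FPKM. The ratio of Nr1h3 to Nr1h2, the widely expressed LXRβ gene, was 2.69 to 3.20, 1.36 to 2.45 and 2.55 to 3.29 in the 3 groups. The DEN model did not overlap with the other groups in these ratios, while Rxra over Rxrb overlapped between all groups.

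**Figure D3:**
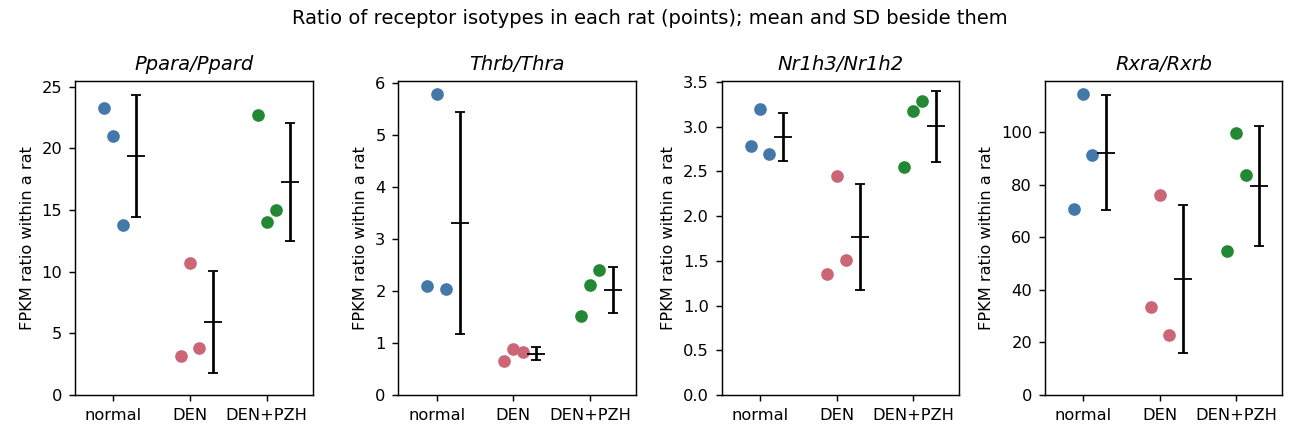
Ratio of FPKM between related receptor genes in each rat, on linear axes from 0. Points are rats, and the bars are the mean and SD of 3 rats. DEN model rats lay below the others for Ppara over Ppard, Thrb over Thra and Nr1h3 over Nr1h2, and overlapped with them for Rxra over Rxrb.

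The genes most like each receptor were found by Pearson's r of log2(CPM + 1) over the 9 rats among 11693 genes that were tested in every comparison, were not listed by a clone name, a LOC or RGD number or an Ensembl ID, and had a mean of at least 1 CPM. These values describe 3 groups of rats that share libraries. Nearest to Ppara were Abca6 (r = 0.996), Amy1a (0.994) and Cth (0.992). Nearest to Nr1h3 were Agt (0.997), Aspg (0.995) and Acox2 (0.995), and nearest to Thrb were Plcb1 (0.993), Gid4 (0.991) and Shld2 (0.989). Vdr lay nearest to Gpx3 (0.994), Klhl14 (0.993) and Gpc3 (0.990), and Esr1 nearest to Cpox (0.972), Tpp1 (0.971) and Polr3gl (0.971). Rxra lay nearest to NEWGENE_1304700 (0.994), Epha1 (0.993) and Cox4i1 (0.993), and Nr3c1 to Usp38 (0.985), Tram1 (0.985) and Usp47 (0.984). Pparg, with Sipa1l2 at 0.95, and Ppard, with Arsg at 0.967, had looser neighbours.

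Calls of listed genes in PZH administration against DEN model turned on single rats. Of 27 list genes that the naming rule selected for this comparison, 21 missed the threshold in edgeR when some rat was left out, among them 20 without DEN model rat 13 and 15 without DEN model rat 24. Cyp4a2, Ehhadh, Lpin1, Dio1, Zbtb16 and Dusp1 passed in each of these fits. Of 33 so selected for DEN model against normal control, Scd alone missed the threshold in such a fit, and of 15 selected for PZH administration against normal control, 12 did. With library totals the fold of all 33 and of 24 of the 27 moved by over 1.5 times, and 3 and 7 of them were no longer called. Without DEN model rat 17 the fall in DEN model rats was larger by over 1.5 times for 7 genes, namely Nr0b2 (-3.55), Fabp1 (-5.30), Thrsp (-3.75), Mt1 (-4.11), Agt (-4.02), Sult1e1 (-8.90) and Ttr (-4.50). The rise in PZH administration rats was likewise larger for 5, namely Fabp1 (4.19), Thrsp (3.88), Tdo2 (2.69), Agt (3.08) and Sult1e1 (7.85). In DEN model against normal control, Cyp4a2 was at -5.45 without normal control rat 1, Lpin1 at -2.71 and Hr at 4.59 without rat 12, and Hr at 3.24 without DEN model rat 13. Scd was at 2.79 in PZH administration against DEN model without rat 42, and Fabp4 at 1.92 against normal control without rat 27.

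PPARα target genes fell together in DEN model liver. Of 23 tested, 22 fell and 0 rose in DEN model against normal control, which is 95.7% called beside 45.8% of all genes. Their median log2 fold change was -2.02 beside 0.03 over all genes. At an unadjusted p under 0.05 the edgeR test also gave 22 lower and 0 higher, as did DESeq2. Library totals gave 16 lower and 0 higher, with a median of -1.21. The 10 hepatocyte markers went the same way, with a median of -1.49 (-0.71 with library totals) and 5 called lower. Among the targets the largest fall was that of Cyp4a2, a fatty acid ω-hydroxylase (-6.54, SE 0.84, edgeR adjusted p = 0.00063), whose reads can be shared with its near copy Cyp4a3. Fabp1, the liver fatty acid binding protein, fell by 4.36 on the log2 scale (SE 0.61), the hormone gene Fgf21 by 4.09 (SE 1.07), or by 1.57 without normal control rat 1, and Ehhadh, an enzyme of peroxisomal oxidation, by 3.10 (SE 0.31). In PZH administration against DEN model 14 of the 23 rose and 0 fell, which is 60.9% called beside 19.1% of all genes. Their median was 1.27 beside 0.01 over all genes. DESeq2 called 21 higher and 1 lower there, and the edgeR test at an unadjusted p under 0.05 gave the same counts. Library totals gave 11 higher and 1 lower, with a median of 0.63. The 10 hepatocyte markers again went the same way, with a median of 1.2 (0.63 with library totals) and 1 called higher. The part of hepatocyte content in the target values was not tested. Without DEN model rat 13, 24 or PZH administration rat 28 the number of targets called was 4, 7 or 8, and without DEN model rat 17 it was 19. Cyp4a2 rose by 5.31 (SE 0.49), Fabp1 by 3.28 (SE 0.83), Ehhadh by 2.07 (SE 0.29) and Acsl1, which activates fatty acids, by 2.0 (SE 0.34) on the log2 scale. Without PZH administration rat 27 Fabp1 was at 2.11 and missed the threshold (edgeR adjusted p = 0.068), and without DEN model rat 17 it was at 4.19. Against normal control 6 of the 23 were lower in PZH administration rats, which is 26.1% called beside 5.21% of all genes. Among them were Angptl4 (-1.47), Pdk4 (-1.40), Cyp4a1 (-1.20) and Ehhadh (-1.07).

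Of 12 glucocorticoid targets, 10 fell in DEN model rats and none rose (median -2.33), which is 83.3% called beside 45.8% of all genes. An unadjusted p under 0.05 gave 11 lower and 1 higher in edgeR, and DESeq2 gave 10 lower and 1 higher. Those that fell included the tyrosine-degrading enzyme Tat (-3.33, SE 0.41), the transcription factor Zbtb16 (-3.28, SE 0.39), the metallothionein Mt1 (-3.25, SE 0.62) and the phosphatase Dusp1 (-3.08, SE 0.42). In PZH administration over DEN model 5 rose and none fell (median 1.80), which is 41.7% called beside 19.1% of all genes. An unadjusted p under 0.05 gave 10 higher and 0 lower in edgeR there, and DESeq2 gave 7 higher and 0 lower. Zbtb16 rose by 2.76, Dusp1 by 2.25, Tat by 2.06 and Tdo2, which degrades tryptophan, by 1.87. With library totals the splits were 1 higher and 8 lower, and 5 higher and 1 lower. Against normal control Tat alone was called in edgeR (-1.31, SE 0.23), which is 8.33% called beside 5.21% of all genes. The median of the list there was -0.78. An unadjusted p under 0.05 gave 0 higher and 6 lower in edgeR, and DESeq2 gave 0 higher and 5 lower.

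Of 7 thyroid hormone targets, 2 rose and 4 fell in DEN model rats (median -0.69), which is 85.7% called beside 45.8% of all genes. In PZH administration over DEN model rats 3 rose and none fell (median 0.33), which is 42.9% called beside 19.1% of all genes. An unadjusted p under 0.05 and DESeq2 each gave 3 higher and 1 lower in the latter comparison. Dio1, the deiodinase that activates and clears thyroid hormone, fell by 3.64 (SE 0.36) and rose by 3.19 (SE 0.32). Thrsp, a regulator of lipid synthesis, fell by 2.87 and rose by 3.03, and the transcription factor Klf9 fell by 2.37 and rose by 1.92. Hr, a corepressor gene, rose by 3.85 (SE 0.80) in DEN model rats. With library totals the splits were 3 higher and 3 lower, and 3 higher and 2 lower. Against normal control none of the 7 was called in edgeR, with 2 higher and 0 lower at an unadjusted p under 0.05 and in DESeq2.

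Of 11 LXR targets, 3 rose and 5 fell in DEN model rats (median -0.61), which is 72.7% called beside 45.8% of all genes. Scd, the fatty acid desaturase, fell by 2.56 (SE 0.74), but was at -1.41 and missed the threshold without normal control rat 3 (edgeR adjusted p = 0.074). Cyp7a1, the rate-limiting enzyme of bile acid synthesis, fell by 1.81 (SE 0.36) and the sterol exporter Abcg5 by 1.58 (SE 0.37), while Mylip, which marks the LDL receptor for breakdown, rose by 1.70 (SE 0.21). In PZH administration over DEN model 4 rose and 3 fell (median 0.60), which is 63.6% called beside 19.1% of all genes. Scd was up by 3.41, Cyp7a1 by 2.02, Srebf1 by 1.32 and Fasn by 1.27. With library totals the splits were 4 higher and 2 lower, and 2 higher and 4 lower. Fasn, the fatty acid synthase, was the only one called against normal control in edgeR (0.99, SE 0.21), which is 9.09% called beside 5.21% of all genes. An unadjusted p under 0.05 gave 2 higher and 2 lower there, and DESeq2 gave 1 higher and 1 lower. Of 4 PPARγ targets tested, Fabp4 (4.30, SE 0.56) and Lpl (3.62, SE 0.29) rose in DEN model rats and Cidec fell (-1.64, SE 0.32). That is 75% called beside 45.8% of all genes. None of the 4 was called in PZH administration against DEN model in edgeR, where an unadjusted p under 0.05 and DESeq2 each gave 1 higher and 1 lower and library totals 0 higher and 3 lower. Lpl (2.88) and Fabp4 (2.73) were also higher than in normal control.

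Of 3 vitamin D and oestrogen targets tested, 1 rose and 1 fell in each comparison with the DEN model. That is 66.7% called in each, beside 45.8% of all genes against normal control and 19.1% for PZH administration against DEN model. Greb1, an oestrogen-induced gene, had 2, 0 and 1 reads in normal control, 74, 83 and 90 in DEN model and 8, 18 and 21 in PZH administration rats. Its scaled count ratio of DEN model to normal control was 46.0 (exact 95% interval 15.5 to 224), and it fell by 1.85 on the log2 scale (SE 0.52) in PZH administration rats. In DEN model against normal control, Greb1 entered the test only through its DEN model reads. Agt, the angiotensin precursor, fell by 3.03 (SE 0.58) and rose by 2.11 (SE 0.57). Cyp24a1, the vitamin D degrading enzyme induced by the vitamin D receptor, had at most 3 reads in any rat and was not tested. Against normal control neither of the 2 genes tested was called in edgeR, with 1 lower and 0 higher at an unadjusted p under 0.05 and in DESeq2.

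**Figure D4:**
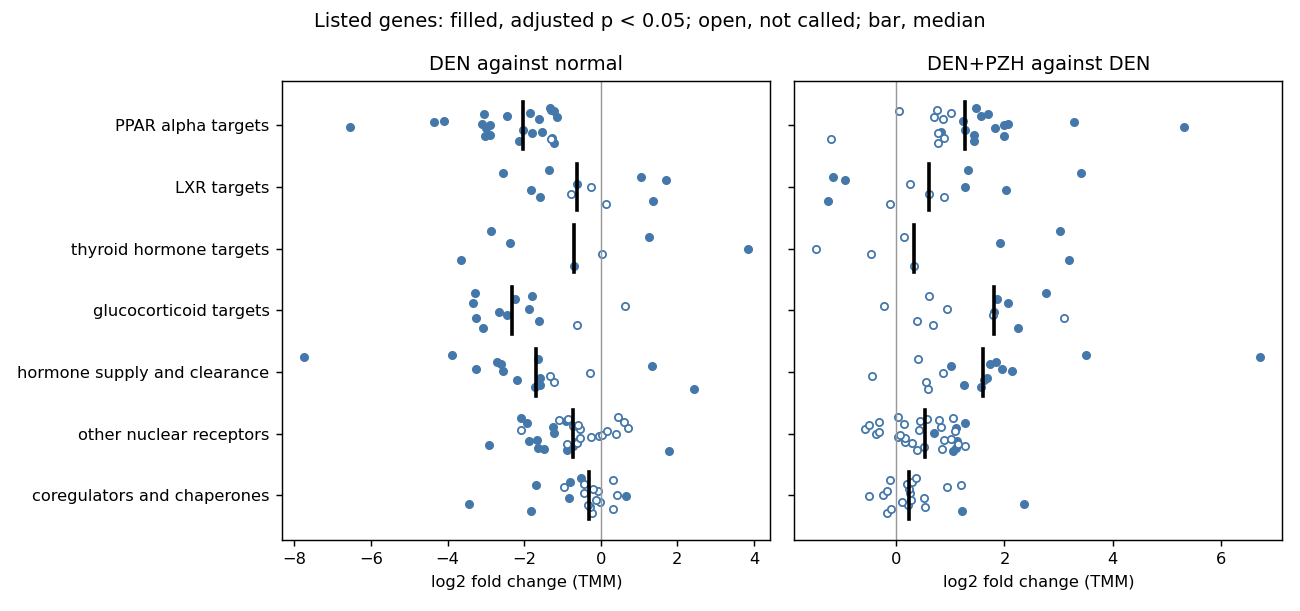
Log2 fold change (TMM scaling) of each tested gene of 7 lists, for DEN model against normal control and for PZH administration (DEN+PZH) against DEN model. Filled points had an adjusted p under 0.05, open points did not, and the bar is the list's median, which was -2.02 and 1.27 for PPARα targets.

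Among 16 tested genes that supply or clear receptor ligands, 2 rose and 11 fell in DEN model rats (median -1.69), which is 81.2% called beside 45.8% of all genes. In PZH administration over DEN model rats 11 rose and none fell (median 1.60), which is 68.8% called beside 19.1% of all genes. An unadjusted p under 0.05 and DESeq2 each gave 2 higher and 12 lower in the former comparison, and 11 higher and 0 lower in the latter. Library totals gave 2 higher and 9 lower (median -0.87), and 9 higher and 0 lower (median 0.99). The 10 hepatocyte markers had medians of -1.49 and 1.2 in these comparisons. The part of hepatocyte content in the values of this and the other lists was not tested. Sult1e1, which inactivates oestrogens, fell by 7.74 (SE 1.20) and rose by 6.72 (SE 1.23). Ttr, a carrier of thyroid hormone and retinol, fell by 3.89 and rose by 3.50, and Serpina6, the corticosteroid carrier, fell by 3.27 and rose by 1.95. The retinol carrier Rbp4 rose by 2.13 in PZH administration over DEN model rats. Against normal control Cyp26a1, which degrades retinoic acid, was higher (2.97), as was the thyroid hormone carrier Serpina7 (2.31), and Serpina6 was lower (-1.36).

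Of the other nuclear receptors, 31 were tested in DEN model against normal control, where 1 rose and 13 fell (median -0.72), which is 45.2% called beside 45.8% of all genes, or 7 higher and 6 lower with library totals. Nr0b2, a repressor of bile acid synthesis genes, fell by 2.91 (SE 0.42), Rxrg by 2.09 (SE 0.34), the retinoic acid receptor gene Rarb by 1.94 (SE 0.39) and the bile acid receptor gene Nr1h4 by 1.88 (SE 0.23). In PZH administration over DEN model 6 of 32 rose and none fell (median 0.54), which is 18.8% called beside 19.1% of all genes, with 11 higher and 0 lower at an unadjusted p under 0.05 and 10 higher and 0 lower in DESeq2, whereas library totals gave 0 higher and 4 lower. The number called was 0 without DEN model rat 13 or 24 or PZH administration rat 28 1 without rat 42 and 11 without DEN model rat 17. Rarb rose by 1.27, Nr1h4 by 1.13, Hnf4a by 1.11 and Nr5a2 by 1.11. Against normal control Nr0b2 (-1.66), Rxrg (-1.08) and Nr1h4 (-0.79) were lower in PZH administration rats.

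Of 20 coregulators and chaperones, 1 rose and 6 fell in DEN model rats (median -0.31), which is 35.0% called beside 45.8% of all genes, and library totals turned this to 9 higher and 2 lower. Lpin1, a coactivator of PPARα, fell by 3.44 (SE 0.56) and Fkbp4, a chaperone of steroid receptors, by 1.83 (SE 0.26). Ppargc1b, a coactivator, fell by 1.70 (SE 0.31), and Ncoa2, a coactivator, by 0.84 (SE 0.19), the latter with a value of 0.00 under library totals. In PZH administration over DEN model Lpin1 rose by 2.36 and Fkbp4 by 1.21, and none fell, which is 10% called beside 19.1% of all genes, with 5 higher and 1 lower at an unadjusted p under 0.05 and 3 higher and 0 lower in DESeq2, against 1 higher and 6 lower with library totals. Against normal control none of the 20 was called in edgeR, with 0 higher and 2 lower at an unadjusted p under 0.05 and 0 in DESeq2.

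**Figure D5:**
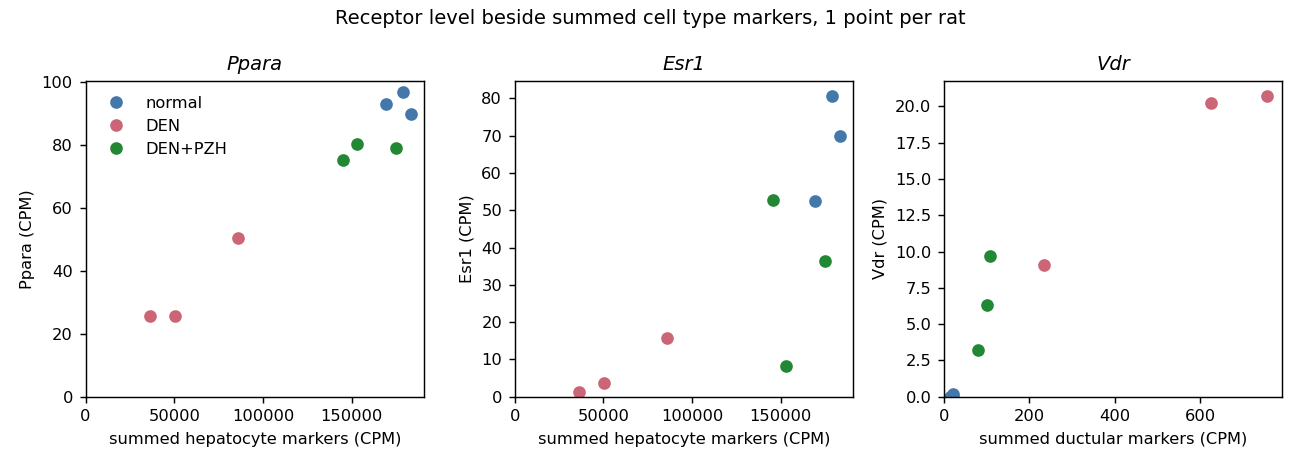
Level of Ppara and Esr1 beside the summed level of 10 hepatocyte markers, and of Vdr beside that of 6 ductular markers, in TMM-scaled CPM on linear axes from 0, with 1 point per rat. DEN model rats had the lowest hepatocyte and the highest ductular sums, and DEN model rat 17 (hepatocyte sum 85870) lay nearest to the other groups.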

How the data were processed

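Liver mRNA of 9 rats, 3 in each group, was analysed from 1 table. The authors deposited whole-number counts of reads per gene and rat, not normalized, and FPKM values that the authors scaled for transcript length and library size. Columns with the authors' group means and comparisons (log2 fold change, P, Q and direction) were not used. The submitters' processing notes name fastp, HISAT2 2.1.0, StringTie 1.3.3b and edgeR 3.30.3, and the counting tool, annotation and build are not given in the sources used here. Counts were tested in R 4.3.3 with edgeR 4.0.16 (filterByExpr, TMM, glmQLFit, glmQLFTest), fitted to 6 rats a comparison with no covariate, and called at a Benjamini-Hochberg adjusted p under 0.05 over all genes tested. Log2 fold changes come from that fit. With 3 rats a group the smallest two-sided p of an exact permutation test is 0.1, so it was not used for calls. For 148 genes listed by clone name the symbol was taken through the NCBI gene ID. Named genes are all receptors and, per list and comparison, up to 4 called genes. The latter have the largest absolute log2 fold change among called genes whose groups did not overlap. Receptors and lists were chosen with earlier results of these data known. Promoters came from RefSeq (GRCr8). The pipeline was tested on simulated counts. Alternatives were DESeq2 1.42.0, library totals, other count filters, all 9 rats in one fit, the study's thresholds and leaving out each rat. Rats are separate animals, so p-values measure the spread between rats. Ep300, Sirt1, Cd36 and Pecam1 were not analysed here, and 2 genes that the naming rule selects are not reported here.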

Additional observations from a re-analysis of the deposited data

How the results depend on the processing

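Counts below are numbers called, and an alternative is given where the number moved by over 1.5 times. Under the study's thresholds, DEN model against normal control had 1753 genes called, 1 of the 9 receptors, 2 other nuclear receptors, 1 coregulator, 11 PPARα, 0 LXR, 3 thyroid hormone and 5 glucocorticoid targets and 6 supply genes. PZH administration against DEN model then had 347 genes, 0 receptors, 0 other nuclear receptors, 1 coregulator, 3 PPARα, 2 LXR, 1 thyroid hormone, 3 glucocorticoid and 0 vitamin D or oestrogen targets and 2 supply genes, and PZH administration against normal control had 310 genes, 1 other nuclear receptor and 0 PPARα, 0 LXR and 0 glucocorticoid targets. DESeq2 called 6 receptors, 10 other nuclear receptors, 22 PPARα and 2 PPARγ targets in PZH administration against DEN model. Against normal control it called 1320 genes, 10 PPARα, 2 LXR, 2 thyroid hormone, 5 glucocorticoid and 1 vitamin D or oestrogen targets and 7 supply genes. With library totals the numbers were 11 coregulators in DEN model against normal control, 6252 genes, 7 coregulators, 3 PPARγ and 5 thyroid hormone targets in PZH administration against DEN model, and 2 PPARα and 1 thyroid hormone targets against normal control. Library totals also turned the log2 fold change of Nr3c1 (PZH administration against DEN model, -0.05), Ppard (PZH administration against normal control, 0.14) and Ncoa2 (DEN model against normal control, 0.0). With at least 10 counts in every rat, which leaves out Vdr in the comparisons with normal control, the numbers were 1 vitamin D or oestrogen target in each comparison with the DEN model, and 340 genes, 0 receptors, 2 other nuclear receptors, 2 PPARα targets and 1 supply gene against normal control. All 9 rats in one fit gave 4 receptors in PZH administration against DEN model, and 2 other nuclear receptors, 1 thyroid hormone, 2 glucocorticoid and 1 vitamin D or oestrogen targets against normal control. Without a count filter there were 1 thyroid hormone and 2 glucocorticoid targets against normal control, and Thrb was at -0.01.

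Leaving out each rat in turn, PZH administration against DEN model had 271 to 3319 genes called, 1 to 6 receptors, 0 to 11 other nuclear receptors, 1 to 2 coregulators, 4 to 19 PPARα, 0 to 1 PPARγ, 0 to 8 LXR, 1 to 4 thyroid hormone, 2 to 7 glucocorticoid and 0 to 1 vitamin D or oestrogen targets and 1 to 12 supply genes. PZH administration against normal control had 207 to 1326 genes, 1 to 2 receptors, 0 to 6 other nuclear receptors, 0 to 1 coregulators, 0 to 11 PPARα, 1 to 2 PPARγ, 0 to 2 LXR, 0 to 2 thyroid hormone, 0 to 4 glucocorticoid and 0 to 2 vitamin D or oestrogen targets and 2 to 5 supply genes. In DEN model against normal control only PPARγ targets moved, between 3 and 5. Signs turned for Pparg in DEN model against normal control (-0.27 to 0.31) and, against normal control in PZH administration rats, for Ppard (-0.25 to 0.15) and Thrb (-0.13 to 0.10). The cause of these changes was not tested. No paired analysis was possible because the rat numbers are not shared between groups. Depth limits Vdr and Greb1 in normal control rats, where their reads were at or under the floor of 3 counts.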
